A study of Homo sapiens with 18 samples.

Results

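In TMD8 cells, 35 of 23686 gene symbols had nearly no counts with DMSO and a low but measurable count in cells given 500 nM JIB-04. For one of them, the microRNA record MIR548AA2, a second record of the same locus held the counts with DMSO, as described below. The 35 genes were chosen by their counts: at most 3 estimated counts in each of the 3 libraries from DMSO-treated TMD8 cells and at least 10 in each of the 3 libraries from cells given 500 nM. The limits alone were met by 41 genes. ADC, ESPN, GDF15, MIR4651 and NPPC were left out because they met the same limits in the second line, OCI-Ly1, and MT1H was left out with the other symbols that begin MT1. The TMD8 counts with DMSO and at 500 nM therefore made the list, and they are given below as a description, with no test and no fold change. On that contrast 60.7% of all 15363 tested TMD8 genes were called by edgeR, 29.9% higher and 30.7% lower, and nothing is read from the 35 against it.

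TMD8 and OCI-Ly1 are established cell lines from human diffuse large B-cell lymphoma, of the activated B-cell and germinal-centre types, and JIB-04 is a small molecule that inhibits Jumonji histone demethylases. Each line was given 0.01% DMSO, the vehicle, or JIB-04 at 150 nM or 500 nM, and each line had its own culture medium, so line and medium cannot be told apart. The labels name no genetic change and no treatment time. RNA was depleted of ribosomal RNA and sequenced as 3 technical libraries per group; separate cultures are not stated, so every SD and p-value here covers only the spread between such libraries. In bulk RNA a low level in every cell and a higher level in a few cells cannot be told apart.

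Library totals were 9550092 to 20509500 estimated counts in TMD8 and 17579732 to 32651115 in OCI-Ly1. Levels scaled to library size are given as CPM, and levels corrected for transcript length as well as TPM. The 3-count limit equalled 0.146 to 0.179 CPM in the TMD8 DMSO libraries, and the 10-count limit equalled 0.676 to 1.05 CPM in the 500 nM libraries, the third of which was the shallowest. B-cell markers fitted the labels: MS4A1 was at 1050 to 1610 CPM in TMD8 and 361 to 567 CPM in OCI-Ly1, and MME, a germinal-centre surface enzyme, was at 256 to 398 CPM in OCI-Ly1 and at most 5 counts in any TMD8 library.

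Most of the genes a cell carries for other tissues are kept silent in B cells, by closed chromatin, by methylated histones and DNA, or because the factors that would drive them are missing. Histone H3 methylated at lysine 9 marks one kind of closed chromatin, and some Jumonji enzymes remove that mark while others remove marks of active genes or of Polycomb silencing. The genes described here belong to several such tissue programmes, among them axon guidance, cell adhesion, cilia, epidermis and muscle.

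Few silent genes reached the upper limit. In TMD8, 6808 genes had at most 3 counts in every DMSO library, and 0.602% of them reached 10 counts in every 500 nM library. At 150 nM, 12 of them (0.176%) did so. Fewer genes met the reverse limits: of 14430 genes with at least 10 counts in every DMSO library, 3 had 3 counts or fewer in every library at 500 nM and 1 did at 150 nM. Genes with far more than 10 counts have further to fall than silent genes have to rise, so these numbers are not alike. In OCI-Ly1, 80 of 6759 silent genes (1.18%) met the limits at 500 nM and 2 (0.0296%) at 150 nM. Only 5 genes met them in both lines. The limits are raw counts and the OCI-Ly1 libraries were deeper. At 500 nM, 10 counts equalled 0.306 to 0.403 CPM in OCI-Ly1, against 0.676 to 1.05 CPM in TMD8. The shares of the lines are therefore not comparable.

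The promoters of DRAXIN, EPHA2 and COL6A2 are shown because these 3 guidance, adhesion and matrix genes span the behaviours described below: DRAXIN and EPHA2 already had many counts at 150 nM, while COL6A2 stayed at 0 or 1. Each is RefSeq sequence of GRCh38.p14 from 250 bases before to 50 after the gene's start, read 5′ to 3′ on the gene's strand. The submitters' processing notes name hg19, so these positions belong to RefSeq only. Capitals mark every CpG in DRAXIN, the cyclic AMP response element TGACGTCA in EPHA2 and the TATA box letters TATAAA in COL6A2.

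DRAXIN, chr1:11691460-11691759, plus strand: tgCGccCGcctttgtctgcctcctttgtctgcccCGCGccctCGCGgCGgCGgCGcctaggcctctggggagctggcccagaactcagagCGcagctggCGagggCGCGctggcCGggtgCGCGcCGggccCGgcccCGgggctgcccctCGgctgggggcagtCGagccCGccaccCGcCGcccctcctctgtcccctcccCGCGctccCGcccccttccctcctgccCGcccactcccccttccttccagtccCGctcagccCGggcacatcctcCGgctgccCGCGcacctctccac

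EPHA2, chr1:16156020-16156319, minus strand: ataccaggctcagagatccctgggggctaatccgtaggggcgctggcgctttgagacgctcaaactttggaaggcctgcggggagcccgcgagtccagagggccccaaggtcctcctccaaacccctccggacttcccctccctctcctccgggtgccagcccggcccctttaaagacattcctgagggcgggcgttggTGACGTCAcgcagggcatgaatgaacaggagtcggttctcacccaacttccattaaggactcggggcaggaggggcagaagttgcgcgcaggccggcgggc

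COL6A2, chr21:46097862-46098161, plus strand: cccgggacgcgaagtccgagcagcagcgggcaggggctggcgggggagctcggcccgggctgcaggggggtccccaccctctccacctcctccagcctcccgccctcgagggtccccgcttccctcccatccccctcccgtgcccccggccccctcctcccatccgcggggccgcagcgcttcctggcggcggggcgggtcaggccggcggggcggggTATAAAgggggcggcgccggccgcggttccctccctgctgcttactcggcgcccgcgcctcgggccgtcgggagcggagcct

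The DRAXIN promoter held 33 CpG, the EPHA2 promoter 20 and the COL6A2 promoter 36, against a median of 14 over all 27305 promoters in the table. At least 1 CpG was present in 95.8% of those promoters. TGACGTCA, which reads the same on both strands, began 51 bases before the EPHA2 start and occurred in 1.98% of all promoters. TATAAA began 32 bases before the COL6A2 start and occurred, on either strand, in 12% of all promoters. The table held a promoter for 19 of the 35 genes (CpG counts of 2 in ITGAM and RFPL4A to 42 in GAS6). With that many missing, no comparison of the set with other promoters is given, and a match of letters is a description only.

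By RefSeq gene type, 30 of the 35 were protein-coding, 2 were microRNA hairpins and 1 was a long noncoding RNA. FLJ35024 and LOC100507140 had no RefSeq match. Protein-coding genes were thus 85.7% of the set, against 65.7% of the genes silent in DMSO-treated TMD8, and microRNAs 5.71% against 16.6%. Matrix, adhesion and protease genes, assigned by symbol, were 5 of the 35 (14.3%), against 4% of the silent genes. The ion-channel genes SCN4B and KCNN1 and a pair of developmental transcription factors, FOXJ1 and HES1, were present. By the same assignment from symbols, none of the 35 was in the germline, histone, chaperone or zinc-finger classes. These classes held 2.72% (185 genes), 0.22%, 0.147% and 1.57% of the silent genes. With shares that small, their absence from 35 genes says little. That assignment misses genes whose symbol does not show their role, such as CLU and FAM71E2, described below. The count limits are not corrected for transcript length, and these shares describe the set and were not tested. They were spread over the genome, with 5 on chromosome 1 and 4 each on chromosomes 17 and 8 as the largest groups.

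At 500 nM their levels were low. The mean level ran from 0.879 to 3.99 CPM, with a median of 1.4 CPM. Per transcript length, the 33 genes other than the microRNAs reached 0.115 to 1.28 TPM, with a median of 0.309 TPM, while the median over all tested TMD8 genes was 4.64 TPM. DRAXIN had the highest mean level, 1.28 ± 0.179 TPM (SD, n = 3). RFPL4A followed at 0.817 ± 0.163 TPM, FLJ35024 at 0.750 ± 0.165 TPM, TRNP1 at 0.678 ± 0.206 TPM and ARC at 0.674 ± 0.0577 TPM, and these 4 lay within each other's spread. XIRP1 was lowest at 0.115 ± 0.0426 TPM. TPM of a hairpin record as short as a read is unstable, so the microRNAs are not ranked. Summed over the 35 genes, the level was 2.06 to 2.24 CPM with DMSO, 15.6, 17.9 and 22.8 CPM at 150 nM, then 60.2, 62.7 and 61.8 CPM at 500 nM. No gene supplied more than 8.0% of the sum in a 500 nM library.

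**Figure D1:**
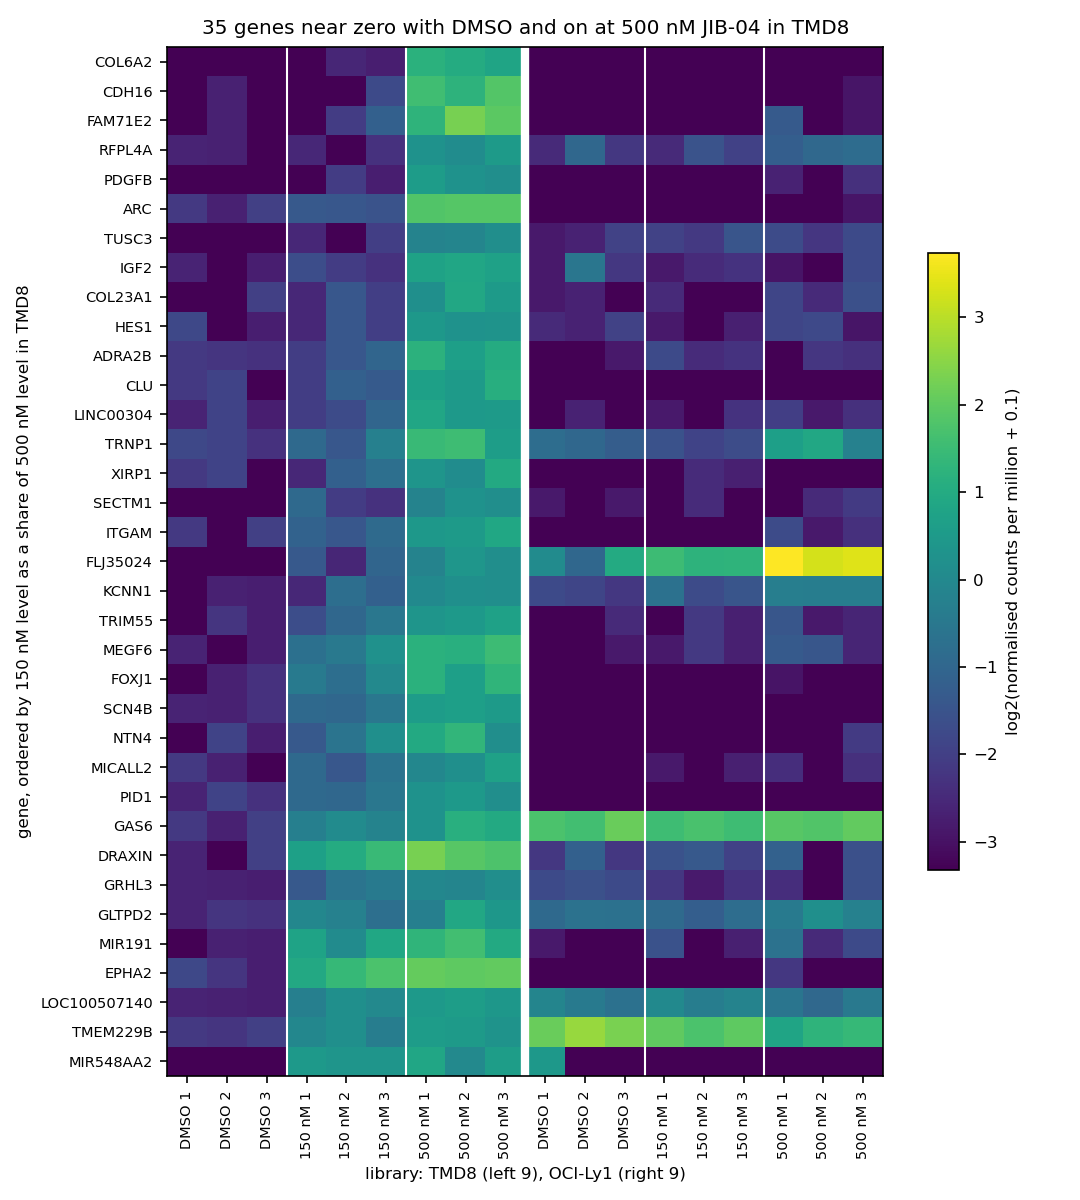
Level of each of the 35 genes in every library, as log2(normalised CPM + 0.1) by colour, with 9 TMD8 libraries on the left and 9 OCI-Ly1 libraries on the right and genes ordered by their 150 nM level relative to 500 nM in TMD8. TMD8 passes from dark through intermediate to bright with dose, which the count limits fix for DMSO and 500 nM, while most OCI-Ly1 rows stay dark, with 10 genes at 3 counts or fewer in all 9 libraries.

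DRAXIN and EPHA2 had the highest mean counts of the set at 500 nM, and NTN4 is described with them as a guidance gene. DRAXIN, a secreted axon guidance protein, had 1, 0 and 3 counts with DMSO, 21, 28 and 53 at 150 nM, then 73, 49 and 32 at 500 nM in the 3 TMD8 libraries. EPHA2, an ephrin receptor tyrosine kinase of epithelial cells, had 3, 2 and 1, then 25, 37 and 65, then 62, 52 and 39 counts. For both, every 150 nM library lay above every DMSO library, while the raw 150 nM and 500 nM counts overlapped. On the depth-corrected scale EPHA2 was at 2.53 ± 0.705 CPM at 150 nM and 3.99 ± 0.0980 CPM at 500 nM. On that scale the libraries of the 2 doses did not overlap for EPHA2 or for DRAXIN (1.52 to 2.63 CPM at 150 nM against 3.27 to 4.81 CPM at 500 nM). NTN4, a netrin of basement membranes, had 0, 3 and 1, then 4, 8 and 21, then 28, 32 and 10 counts, so its groups at the 2 doses overlapped. EPHA2 had 0 counts in the 6 OCI-Ly1 libraries with DMSO or 150 nM and 4, 0 and 0 at 500 nM, and DRAXIN had 0 to 12 counts across all OCI-Ly1 libraries with no separation of the groups.

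Adhesion and matrix genes differed in their 150 nM counts. CDH16, a cadherin best known from kidney, had 0, 1 and 0 counts with DMSO, 0, 0 and 4 at 150 nM, then 44, 30 and 34 at 500 nM. COL6A2, a chain of the microfibril collagen VI whose promoter is printed above, had 0 in every DMSO library, 0, 1 and 1 at 150 nM, then 33, 26 and 16 at 500 nM. Both reached the list with no more than 4 counts in any 150 nM library. COL23A1, a transmembrane collagen, had 0, 0 and 3, then 1, 4 and 3, then 16, 24 and 13 counts. MEGF6, a protein with many EGF-like repeats, differed from these in having 7, 9 and 22 counts at 150 nM, between 1, 0 and 1 with DMSO and 33, 28 and 27 at 500 nM. ITGAM, the integrin chain CD11b of myeloid cells, had 2, 0 and 3, then 5, 4 and 9, then 19, 18 and 17 counts.

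ITGAM is also the only one of the 35 in the lists of markers of other cell types, which held 21 myeloid genes. The other myeloid genes summed to 30.7 to 33.9 CPM with DMSO and 26.8 to 27.1 CPM at 500 nM in TMD8. Counting ITGAM, 14 of the 21 were at 3 counts or fewer in all 3 libraries with DMSO and 13 at 500 nM. Those at 0 in all 3 were 12 with DMSO and 5 at 500 nM. S100A8 and S100A9, defining myeloid genes, were at 0 in all 18 libraries, and CD14 had 1 to 7 counts in every TMD8 library. Other myeloid markers were counted in TMD8. CD68 was at 23.4 to 26.1 CPM with DMSO and 18.6 to 20.2 CPM at 500 nM, and LYZ, CSF1R and FCGR1A were at 0.505 to 1.86 CPM. The summed fibroblast markers were at 58.3 to 76.1 CPM with DMSO and 89.6 to 97 CPM at 500 nM, the muscle markers at 377 to 399 and 533 to 546 CPM, the neuronal markers at 83.1 to 90.4 and 122 to 126 CPM, and the erythroid and platelet markers at 8.75 to 10.2 and 12.3 to 13.2 CPM. Sums of epithelial markers overlapped, at 120 to 133 and 122 to 125 CPM, and those of T and NK cells were lower at 500 nM, at 174 to 192 against 282 to 286 CPM. The part of other cells in the 35 genes was not tested.

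**Figure D2:**
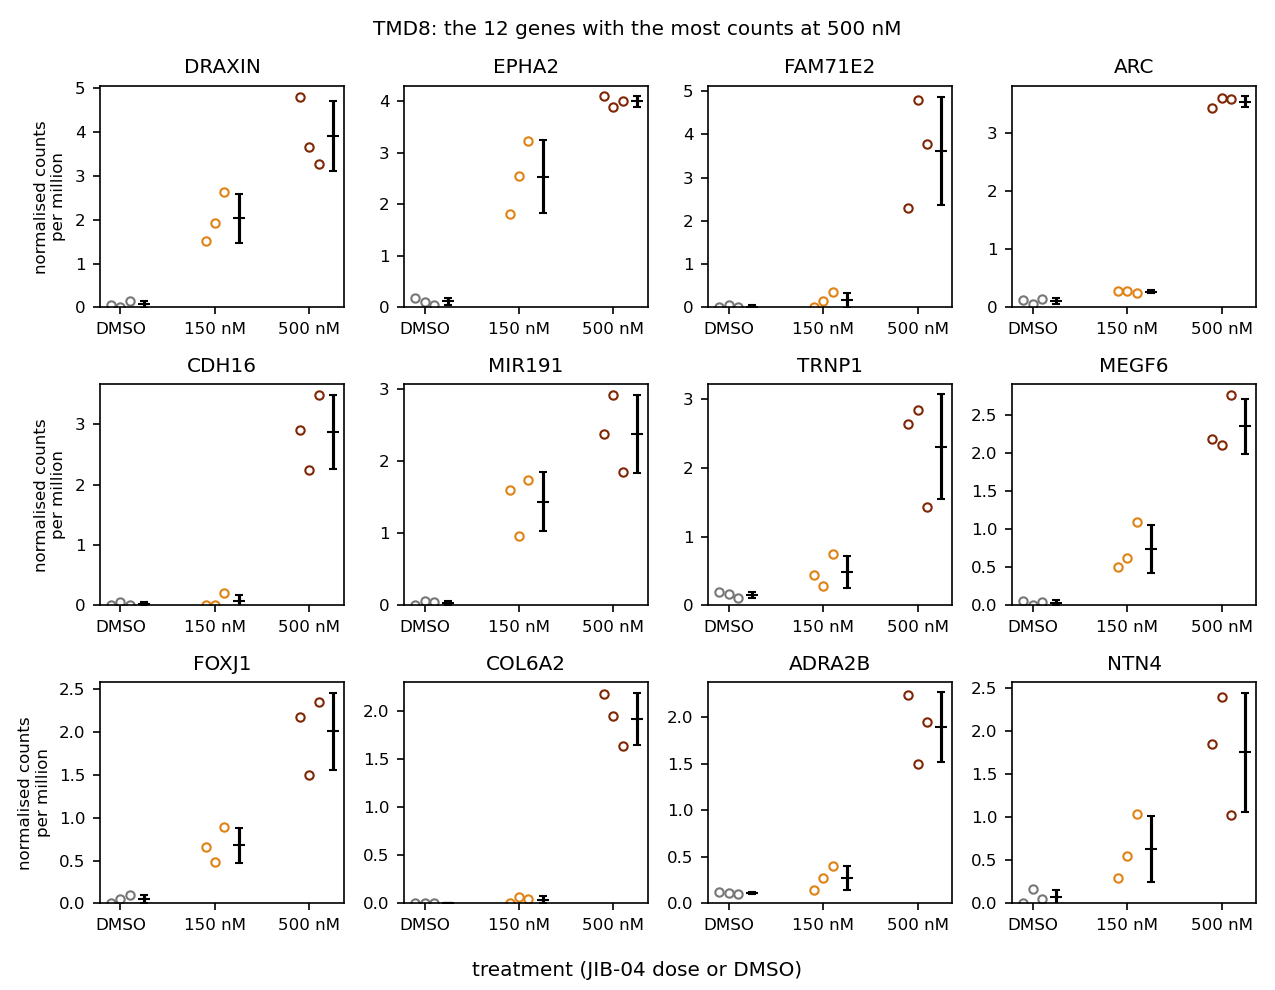
Normalised CPM in each TMD8 library for the 12 genes with the most counts at 500 nM, by treatment, with circles for libraries and, beside them, the group mean with a bar of 1 SD to each side. EPHA2 and DRAXIN are well above 0 at 150 nM, whereas ARC, CDH16, FAM71E2 and COL6A2 stay close to the DMSO level there.

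Genes of secreted proteins formed a second group, and their 150 nM values differed. GAS6, the ligand of the TAM receptor kinases, had 2, 1 and 3 counts with DMSO, 10, 14 and 16 at 150 nM, then 17, 28 and 18 at 500 nM, with no overlap between groups. IGF2, a growth factor of fetal tissue, had 1, 0 and 1, then 3, 2 and 2, then 23.9, 23 and 15 counts. PDGFB, a ligand of the PDGF receptors, had 0 in every DMSO library, 0, 2 and 1 at 150 nM, then 21, 15 and 10 at 500 nM. CLU, an extracellular chaperone, had 2, 3 and 0, then 2, 5 and 6, then 23, 18 and 20 counts. SECTM1, a secreted and transmembrane protein of blood cells, had 0 with DMSO, 6, 2 and 2 at 150 nM, then 12, 15 and 10 at 500 nM. GAS6 was thus the one gene of these 5 with at least 10 counts in every 150 nM library.

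Genes of regulators came from cilia, epidermis, neurons and Notch signalling. FOXJ1, the master regulator of motile cilia, had 0, 1 and 2 counts with DMSO, 9, 7 and 18 at 150 nM, then 33, 20 and 23 at 500 nM. HES1, a repressor induced by Notch, had 3, 0 and 1, then 1, 4 and 3, then 19, 15 and 11 counts, with the first 2 groups overlapping. GRHL3, a transcription factor of the epidermal barrier, had 1 in every DMSO library, 4, 8 and 13 at 150 nM, then 13, 11 and 10 at 500 nM. TRNP1, a nuclear protein of neural progenitors, had 3, 3 and 2, then 6, 4 and 15, then 40, 38 and 14 counts. ARC, the synaptic immediate-early gene, had 2, 1 and 3, then 4, 4 and 5, then 52, 48 and 35 counts. ARC was the gene of this group with the sharpest step between the 2 doses, from 0.272 ± 0.0215 to 3.53 ± 0.0917 CPM.

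The set also held genes of channels, of a receptor and of muscle. ADRA2B, an alpha-2 adrenergic receptor, had 2 counts in every DMSO library, 2, 4 and 8 at 150 nM, then 34, 20 and 19 at 500 nM. SCN4B, an accessory subunit of voltage-gated sodium channels, had 1, 1 and 2, then 6, 6 and 12, then 21, 20 and 13 counts, and its groups did not overlap. KCNN1, a calcium-activated potassium channel, had 0, 1 and 1, then 1, 7 and 7, then 14, 14 and 10 counts. TRIM55, a ubiquitin ligase of the sarcomere, had 0, 2 and 1, then 3, 6 and 12, then 18, 17 and 15 counts. XIRP1, an actin-binding protein of striated muscle, had 2, 3 and 0, then 1, 5 and 10, then 18, 13 and 18 counts. In both muscle genes the lowest 500 nM library lay above the highest 150 nM library.

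FAM71E2, a gene known mainly from testis, had the third-highest mean count at 500 nM, with 35, 64 and 37 counts, after 0, 1 and 0 with DMSO and 0, 2 and 7 at 150 nM. RFPL4A, of the ret finger protein-like family, had 1, 1 and 0, then 1, 0 and 2, then 17, 13 and 13 counts. TUSC3, a subunit of the oligosaccharyltransferase of the endoplasmic reticulum, had 0 with DMSO, 1, 0 and 3 at 150 nM, then 12, 11 and 10 at 500 nM, the fewest counts in the set. TMEM229B, a membrane protein, had 2, 2 and 3, then 12, 15 and 14, then 21, 18 and 11 counts, and GLTPD2, of the glycolipid transfer family, had 1, 2 and 2, then 12, 11 and 10, then 11, 24 and 12. Both had at least 10 counts in every 150 nM library, and their raw counts overlapped between the doses. Scaled to depth, GLTPD2 still overlapped, and TMEM229B did not (0.695 to 1.04 CPM at 150 nM against 1.12 to 1.38 CPM at 500 nM). PID1, an adaptor with a phosphotyrosine-interaction domain, and MICALL2, a Rab13-binding junction protein, lay between, with 4 to 12 counts at 150 nM, then 10 to 17 at 500 nM.

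Of the long noncoding RNA and the symbols without a RefSeq match, LINC00304 had 1, 3 and 1 counts with DMSO, 2, 3 and 8 at 150 nM, then 26, 17 and 13 at 500 nM. LOC100507140 had 1 in each DMSO library, 10, 15 and 18 at 150 nM, then 20, 19 and 12 at 500 nM. FLJ35024 had 0 with DMSO, 4.1, 1 and 8 at 150 nM, then 12.4, 15.6 and 10.3 at 500 nM. The first of the 3 was near its DMSO counts at 150 nM in 2 libraries, and LOC100507140 was not.

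MIR191 is a microRNA hairpin inside DALRD3 on the same strand, at chr3:49020618-49020709 on the minus strand of GRCh38.p14. Its 2 mature products are shown because they say what the gene would make, with the seed, bases 2 to 8, in capitals.

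hsa-miR-191-5p: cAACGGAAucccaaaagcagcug

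hsa-miR-191-3p: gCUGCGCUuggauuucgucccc

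The seeds differ from each other, and no other name among the 2370 mature microRNAs of the table shares either. The libraries count fragments of long RNA over the hairpin record and do not measure the mature forms. MIR191 had 0, 1 and 1 counts with DMSO, 22, 14 and 35 at 150 nM, then 36, 39 and 18 at 500 nM. Its neighbour MIR425, in the same host, had 5, 1 and 4, then 19, 24 and 71, then 48, 37 and 32 counts, and the host DALRD3 was at 19.4 ± 0.473, 27.5 ± 1.15 and 35.2 ± 0.915 CPM. NDUFAF3, which overlaps MIR191 on the other strand, went from 43.0 ± 2.09 CPM with DMSO to 36.7 ± 1.05 CPM at 500 nM. Reads of the host and of the hairpin cannot be told apart with certainty here.

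MIR548AA2 met the limits only as a separate record. Its record and that of MIR548D2 lie on opposite strands of a single hairpin locus, and in most libraries all the counts were on one or the other. In TMD8, MIR548AA2 had at most 0.0289 counts in each DMSO library while MIR548D2 had 22.4, 32.3 and 34.4. At 150 nM MIR548AA2 had 18, 16.8 and 23.8 and MIR548D2 had 0, 0.3 and 0, and at 500 nM they had 26, 11.5 and 13.6 against 0, 11.5 and 0. The sum was 22.4, 32.3 and 34.4 counts with DMSO, 18, 17.1 and 23.8 at 150 nM, then 26.0, 23.1 and 13.6 at 500 nM, so the pair counted together was above the 3-count limit in every library. In OCI-Ly1 the first DMSO library gave all 32 counts to MIR548AA2 and the other 8 libraries gave theirs, 10.8 to 48.1, to MIR548D2. PITPNC1, which also overlaps MIR548AA2, went from 202 ± 5.55 CPM with DMSO to 186 ± 0.782 CPM at 500 nM in TMD8. The MIR548AA2 sequence was not in the table used here and is not printed.

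**Figure D3:**
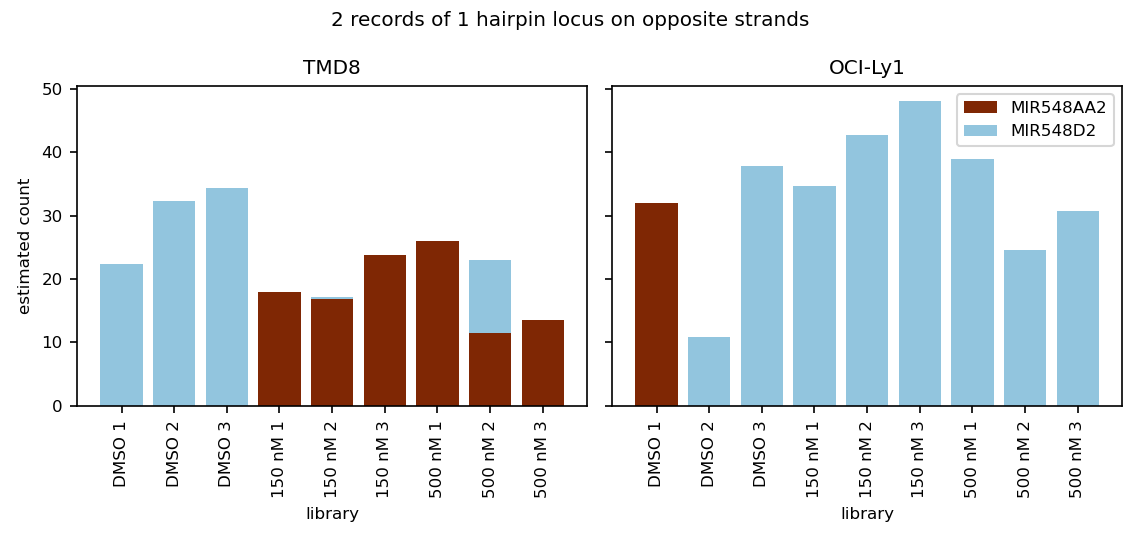
Estimated counts of MIR548AA2 and MIR548D2, stacked, in each library of TMD8 (left) and OCI-Ly1 (right). Within TMD8 the colour changes between DMSO and treated libraries while the stack does not vanish: it holds 22.4 to 34.4 counts with DMSO and 13.6 to 26.0 at 500 nM.

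Across the set, levels at 150 nM formed a continuous range between the DMSO and 500 nM levels. The libraries at 150 nM were not used to choose the genes. Each gene's mean level at 150 nM was 2.06% to 90.8% of its mean level at 500 nM, with a median of 25.1%. The share was under 25% for 16 genes, from 25% to 50% for 11 and 50% or more for 8. COL6A2 (2.06%), CDH16 (2.30%), FAM71E2 (4.46%), RFPL4A (5.02%), PDGFB (5.32%) and ARC (7.69%) were lowest. MIR548AA2 (90.8%, on the shared locus), TMEM229B (67.5%), LOC100507140 (66.9%), EPHA2 (63.5%) and MIR191 (60.3%) were highest. The 500 nM values in these shares were chosen to be high, so the shares are a description.

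In counts, 4 genes (COL6A2, IGF2, PDGFB and RFPL4A) kept 3 or fewer in every 150 nM library, and 18 were above 3 in every one. At least 10 counts in every 150 nM library were found for DRAXIN, EPHA2, GAS6, GLTPD2, LOC100507140, MIR191, MIR548AA2 and TMEM229B. For 24 genes the lowest raw count at 500 nM exceeded the highest at 150 nM. The limits held every 500 nM library at 10 counts or more, which favours such a separation, so this number is a description. The third 150 nM library had the highest CPM of its group for 21 of the 35 genes, and it had the largest total. With the edgeR quasi-likelihood test, 21 of the 35 were called higher at 150 nM than with DMSO at an adjusted p under 0.05 and 0 were called lower (27 had an unadjusted p under 0.05, all higher). Of all 15363 genes tested, 44.2% were called at 150 nM, 19.2% higher and 25% lower. This count is no support for a rise at 150 nM, because the DMSO libraries it is measured against chose the genes and the genes passed the low-count filter through their 500 nM counts. With only the DMSO and 150 nM libraries in the fit, 7 of the 35 were tested and all 7 were called, which is no support either: with DMSO counts of at most 3, a gene could pass that filter only through its 150 nM counts.

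**Figure D4:**
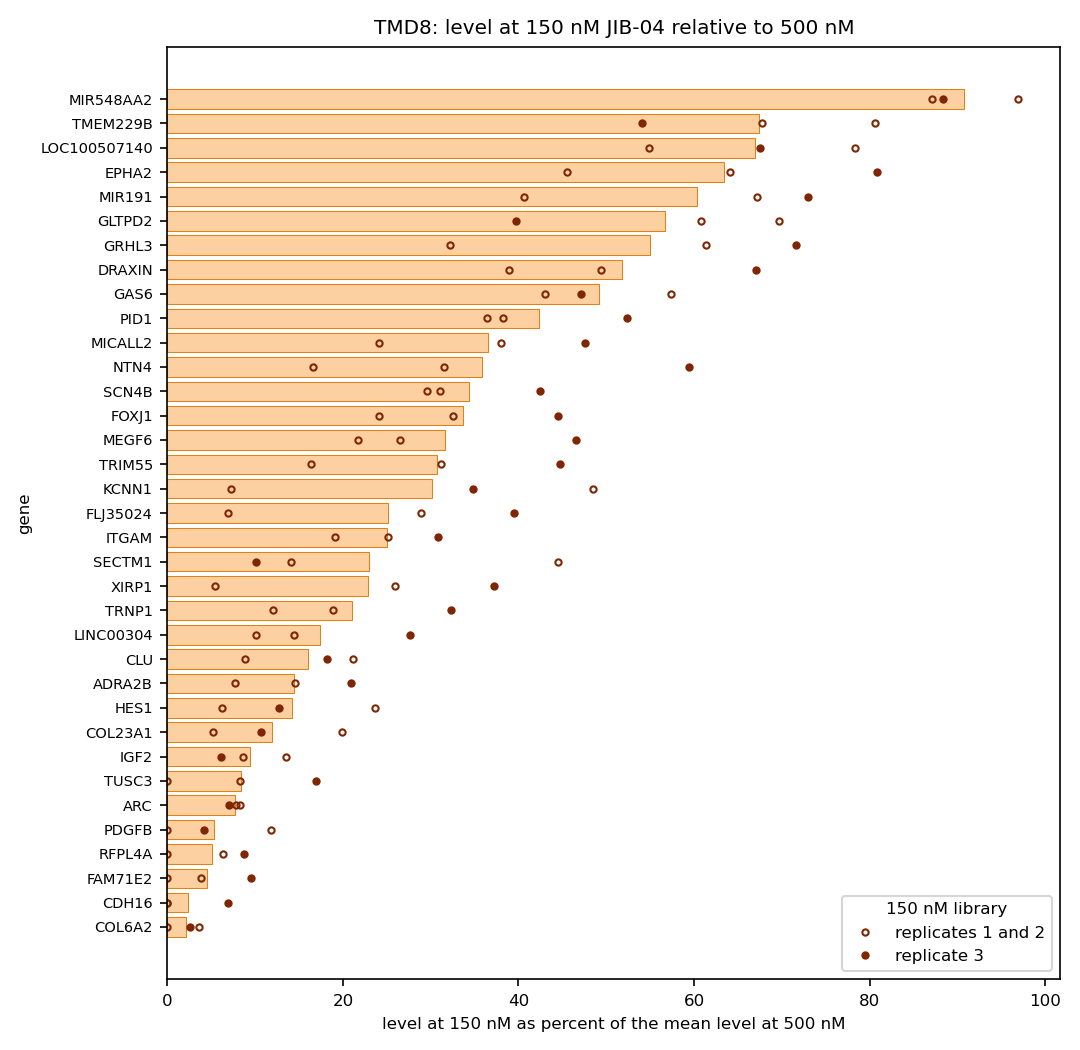
Level in each 150 nM TMD8 library as a percent of the gene's mean level at 500 nM, by gene, with bars for the group mean, open circles for the first and second libraries and filled circles for the third. The genes form a continuous range from 2.06% (COL6A2) to 90.8% (MIR548AA2), and the third library often lies to the right of the others.

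In OCI-Ly1 the same genes were silent, weakly counted or expressed. With DMSO, 21 of the 35 had at most 3 counts in every library, and 10 had at most 3 in all 9 OCI-Ly1 libraries: ARC, CDH16, CLU, COL6A2, FOXJ1, MICALL2, PDGFB, PID1, SCN4B and XIRP1. CLU, COL6A2, PID1 and SCN4B were at 0 in all 9. Of the 21, none was above 3 counts in every 500 nM library and 10 were in at least 1, among them FAM71E2 (10, 0 and 1), MIR191 (18, 2 and 6) and MEGF6 (10, 7 and 2). The exclusion of genes that met the limits in OCI-Ly1 removed 5 genes that were silent there and on at 500 nM, so the low counts at 500 nM follow in part from the choice of genes.

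Another 7 genes had more than 3 counts in every DMSO-treated OCI-Ly1 library: FLJ35024, GAS6, GLTPD2, GRHL3, LOC100507140, TMEM229B and TRNP1. GAS6 (1.88 TPM), FLJ35024 (1.89 TPM) and TMEM229B (1.61 TPM) had the highest mean levels there. GAS6 had 82, 50 and 105 counts with DMSO and 121, 89 and 122 at 500 nM. GRHL3, at 5, 4 and 5 counts, was barely above the limit. RFPL4A was in neither group, with 2, 7 and 3 counts with DMSO, 2, 6 and 3 at 150 nM, then 11, 11 and 14 at 500 nM. Only its DMSO library with 7 counts kept it from being left out. Scaled to depth, its 500 nM libraries (0.328 to 0.461 CPM) overlapped those with DMSO (0.0793 to 0.411 CPM), and it was not tested in OCI-Ly1.

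The low-count filter let 7 of the 35 be tested in OCI-Ly1, and 4 were called at 500 nM, 3 higher and 1 lower. Of all 15638 genes tested there, 27.7% were called higher and 25.9% lower, in all 53.6%, and with 7 genes tested the 3 and 1 describe those genes only. FLJ35024, an uncharacterised transcript, had 24, 7 and 47 counts with DMSO, 69, 55 and 43 at 150 nM, then 444, 247 and 315 at 500 nM. It rose from 1.09 ± 0.752 to 11.1 ± 1.92 CPM at 500 nM, a log2 fold change of 3.27 (SE 0.27, adjusted p = 1.5e-08, edgeR). All 500 nM libraries lay above all others, and FLJ35024 alone made up 46.1% to 52.2% of the summed level of the 35 genes in those libraries.

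TRNP1 and KCNN1 passed the low-count filter in OCI-Ly1 through their 500 nM counts: neither was tested when only the DMSO and 150 nM libraries were fitted. A gene that enters this way is likely to be called higher, so their values are a description. TRNP1 had 12, 7 and 8 counts with DMSO, 6, 4 and 4 at 150 nM, then 50, 46 and 23 at 500 nM, a log2 fold change of 1.72 at 500 nM (SE 0.39, adjusted p = 0.0012, edgeR). KCNN1 had 5, 3 and 3, then 13, 5 and 5, then 24, 18 and 21 counts, a log2 fold change of 2.06 (SE 0.48, adjusted p = 0.0015, edgeR). In both genes every 500 nM library lay above every library of the other treatments.

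TMEM229B went the other way. It had 107, 106 and 120 counts with DMSO, 98, 78 and 73 at 150 nM, then 55, 60 and 77 at 500 nM in OCI-Ly1, and fell from 5.10 ± 1.01 to 2.17 ± 0.469 CPM, a log2 fold change of -1.23 at 500 nM (SE 0.20, adjusted p = 5.3e-05, edgeR). All 500 nM libraries were below all DMSO libraries, although OCI-Ly1 at 500 nM (2.17 CPM) was still above TMD8 at 500 nM (1.29 ± 0.140 CPM). The difference between the lines was not tested, since the TMD8 values chose the gene. On the log2(TPM + 1) scale, which understates the change of low genes, limma also called TRNP1 (0.64), KCNN1 (0.35) and TMEM229B (-0.57), with smaller changes than by edgeR. The limma fit used the same low-count filter, so for TRNP1 and KCNN1 its calls are a description too.

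GLTPD2 (log2 fold change 0.71, SE 0.36, adjusted p = 0.10), LOC100507140 (-0.30, SE 0.35, adjusted p = 0.49) and GAS6 (0.08, SE 0.17, adjusted p = 0.73) were not called by edgeR at 500 nM in OCI-Ly1. GLTPD2 counts were 11, 9 and 13 with DMSO and 22, 27 and 23 at 500 nM, and on the log2(TPM + 1) scale limma called it (adjusted p = 0.011). At 150 nM edgeR called none of the 7, against 0.889% of all genes called, 0.748% higher and 0.141% lower. An unadjusted p under 0.05 was found for 2 of them, FLJ35024 (log2 fold change 1.10, adjusted p = 0.13) and TMEM229B (-0.46, adjusted p = 0.42), and DESeq2 called FLJ35024. Without the third DMSO library, whose 47 counts were the most of its group, edgeR called FLJ35024 as well (adjusted p = 0.0058, log2 fold change 1.76).

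**Figure D5:**
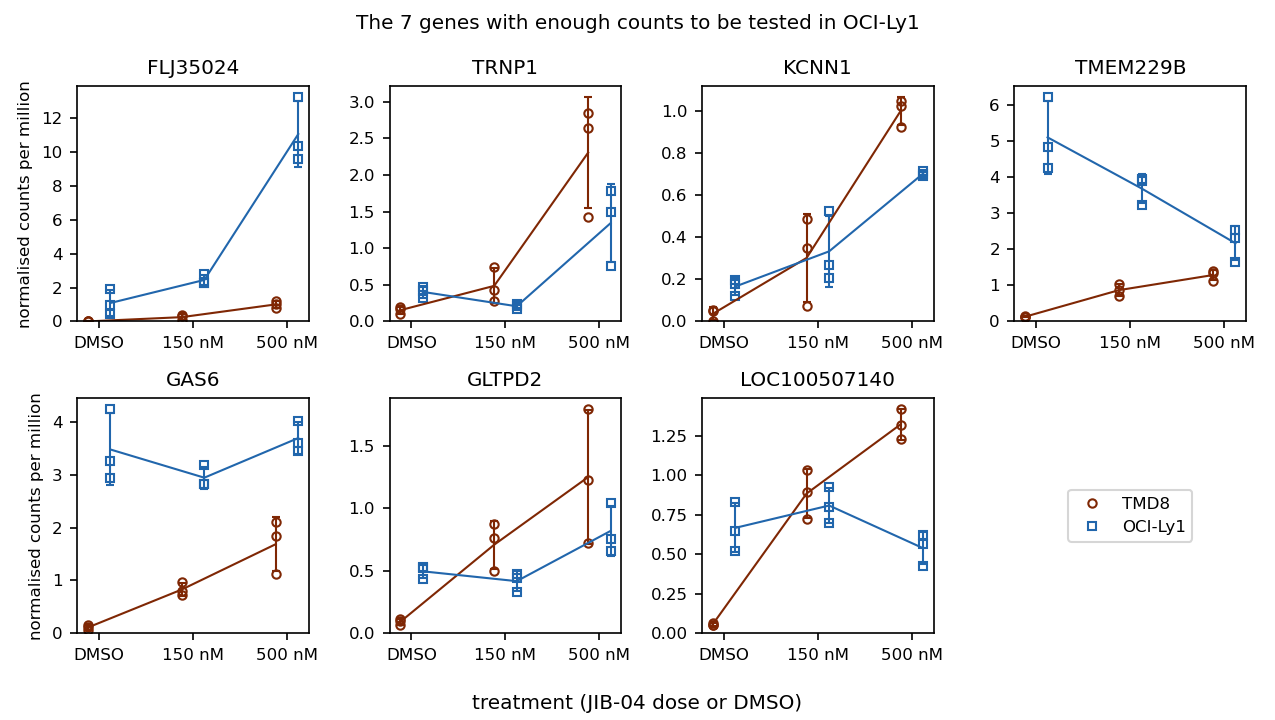
Normalised CPM in each library for the 7 genes tested in OCI-Ly1, by treatment, with OCI-Ly1 as squares and TMD8 as circles, lines through the group means and bars of 1 SD to each side. FLJ35024 climbs in OCI-Ly1 to 11.1 CPM at 500 nM, TMEM229B declines there from 5.10 to 2.17 CPM, and GAS6 is at 3.47 CPM with DMSO and 3.69 CPM at 500 nM.

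Next-door genes were examined for the 33 genes with a RefSeq position. Of their 66 flanking genes, 46 were tested in TMD8 at 500 nM; 21 were called higher (45.7%) and 16 lower (34.8%), against 29.6% and 31.7% of the flanking genes of all genes. A rise of at least 1 on the log2 scale was found for 11 of the 46 (23.9%), against 7.93% of all flanking genes. These flanks stand beside 11 of the 33 genes (33.3%), against 9.91% of all genes. The flanks of the 33 were the nearest genes that do not overlap them. For all genes they were the next genes by start position, overlapping ones included, so the shares compared are not strictly alike. MIR425, among the 11, lies in the same host gene as MIR191. RRAD, a small GTPase of muscle and heart that lies just 5′ of CDH16 on the same strand, had 0, 5 and 1 counts with DMSO, 22, 37 and 74 at 150 nM, then 290, 232 and 165 at 500 nM. MEGF6 faces ARHGEF16 tail to tail, and that gene had 5, 3 and 2, then 7, 8 and 8, then 32, 24 and 24 counts. BAI1, tail to tail with ARC, had 5, 10 and 13 counts with DMSO and 44, 24 and 25 at 500 nM, and FTCD, tail to tail with COL6A2, had 0, 1 and 2 with DMSO and 15, 22 and 7 at 500 nM. The 35 genes were chosen on the same contrast, and the cause of these shares was not tested.

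Overlapping genes limit further values, since no strand is stated for the counting. GAS6 overlaps GAS6-AS1, which had 2, 0 and 1 counts with DMSO, 4, 4 and 12 at 150 nM, then 20, 9 and 12 at 500 nM. DRAXIN overlaps MAD2L2, which went from 41.5 ± 2.01 to 29.4 ± 2.25 CPM, opposite in direction to DRAXIN. GRHL3 overlaps STPG1 (1.77 ± 0.108 to 3.04 ± 0.280 CPM) and TMEM229B overlaps PLEKHH1 (1.36 ± 0.321 to 2.37 ± 0.324 CPM). IGF2 overlaps IGF2-AS (0 to 0.261 ± 0.225 CPM), NTN4 overlaps the pseudogene PGAM1P5 (1.26 ± 0.211 to 1.10 ± 0.330 CPM) and FOXJ1 overlaps RNF157-AS1 (0.276 ± 0.0760 to 0.347 ± 0.131 CPM), all from DMSO to 500 nM. INS-IGF2 and MIR483 at IGF2, MIR551A at MEGF6 and GPHN at TMEM229B had at most 0.110 CPM in mean. These overlaps are of whole gene spans, and shared transcript sequence was not examined. The reads of antisense partners such as GAS6 and GAS6-AS1 cannot be told apart with certainty here.

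Lists of immediate-early and heat shock genes held 2 of the 35, and a link of these 2 to stress was not tested. ARC is an immediate-early gene on a list named for AP-1 and EGR factors. The other tested members of that list were called higher for 21 of 27 at 150 nM and 22 of 27 at 500 nM in TMD8 (lower for 2 and 3). At 150 nM ARC itself had 4, 4 and 5 counts and was not called. Over all genes tested, 19.2% and 29.9% were called higher at these doses in TMD8, and 0.748% and 27.7% in OCI-Ly1, for this list and those that follow. In OCI-Ly1, where ARC had 0 or 1 count in every library, 1 of 25 was called higher at 150 nM and 16 of 25 at 500 nM, with 3 lower. CLU belongs to a list of heat shock factor targets and chaperones, of whose other members 17 of 36 were called higher and 16 lower at 500 nM in TMD8, so that list had no single direction. Integrated stress response genes, a list with none of the 35, were called higher for 34 of 37 at 150 nM and at 500 nM in TMD8, and for 24 of 36 and 35 of 36 in OCI-Ly1, where 1 was lower at 500 nM. A list of germline genes also held none of the 35, although FAM71E2, described above as known mainly from testis, is not on it. From that list, 5 of 13 tested were called higher and 2 lower at 500 nM in TMD8. At that dose 35 of the 53 listed had at most 3 counts in every TMD8 library.

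The limits cut through a continuous range of counts. GRHL3, KCNN1 and NTN4 were just inside, each with a 500 nM library at 10 counts, and ARC, COL23A1 and DRAXIN were just inside at 3 counts in a DMSO library. Just outside, ARHGEF10L had 10, 13 and 9 counts at 500 nM, BHLHA15, a secretory-cell transcription factor, 23, 15 and 9, and GAS6-AS1 20, 9 and 12. On the other side IGSF9 had 1.03, 3.12 and 1.03 counts with DMSO, ACHE, the acetylcholinesterase gene, 1, 4 and 3, and ATP10B 3, 2 and 4. In all, 77 genes had a lowest 500 nM count from 5 to under 10, and 25 had a highest DMSO count above 3 and up to 5.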

How the data were processed

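The authors deposited, for each line, estimated counts and TPM per gene symbol from kallisto 0.46.0; hg19, R 4.3.1 and DESeq2 1.40.2 are also named, per the submitters' processing notes. The step from transcripts to genes and any strand setting are not given in the sources used here. Deposited estimated counts were used unrounded for the limits (at most 3, at least 10) and rounded for tests. The main test was edgeR 4.0.16 (quasi-likelihood, TMM, filter by group, R 4.3.3) on the 9 libraries of a line, with Benjamini-Hochberg adjustment over all genes tested, and a call at an adjusted p under 0.05. CPM are TMM-normalised; limma 3.58.1 on log2(TPM + 1) or log2(TPM + 0.1) and DESeq2 1.42.0 were alternatives. The fits other than TMD8 at 500 nM were tried on simulated counts. None of the genes changed there was near 0 with DMSO, so that trial does not cover genes like the 35. The members, gene lists and classes were chosen with earlier results of these data known. Genes were named by rule: the 12 with most counts at 500 nM, the 6 at 150 nM, leading genes of each class, list members, those called or most expressed in OCI-Ly1, and those nearest the limits; the remaining members are described so that all 35 are accounted for. RefSeq (GRCh38.p14) matched 33 of 35 symbols. No 2 libraries of a group were identical: chi-square per degree of freedom was 1.65 to 11.5 over 18 pairs. Low counts limit precision, and p-values cover technical spread only.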

Additional observations from a re-analysis of the deposited data

Results flagged for a closer look

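TMEM229B had a log2 fold change of -1.23 at 500 nM in OCI-Ly1, where every 500 nM library was below every DMSO library, while in TMD8 every 500 nM library was above every DMSO library. The opposite directions in the 2 lines brought it here. The direction in TMD8 was fixed by how the gene was chosen, and the difference between the lines was not tested.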

How the results depend on the processing

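The number of genes depended on the limits. It was 35 as reported, 5 with at most 0 counts per DMSO library, 16 with at most 1, 59 with at most 5, 110 with at least 5 counts per 500 nM library, 8 with at least 20, and 58 with counts scaled to the mean library total. Leaving out 1 library gave 38 to 60 genes, the most without 500 nM replicate 3, the shallowest library. At 150 nM in TMD8, 21 genes were called as reported, 11 by limma on log2(TPM + 1) and 7 of 7 tested with only those 2 groups in the fit; leaving out 1 library gave 19 to 24, and the other settings 20 to 22. DRAXIN, EPHA2, GAS6, LOC100507140, MIR191, MIR548AA2 and TMEM229B were called under all 15 settings. These are the 7 tested with only those 2 groups in the fit, which they could enter only through their 150 nM counts. All settings used DMSO libraries that chose the genes, and MIR548AA2 shares its locus with MIR548D2, so the list is no support for a rise. In OCI-Ly1 at 500 nM, 4 were called as reported, 8 with no low-count filter, and 4 to 5 when 1 library was left out. At 150 nM there, 0 were called as reported, 2 with no low-count filter and 1 by DESeq2; leaving out 1 library gave 0 to 1. With replicate number as a block, the calls were 22, 4 and 0 in these 3 comparisons. Deviations of same-numbered libraries had correlations of -0.0545 to 0.141 in TMD8 and -0.0462 to 0.146 in OCI-Ly1. Differently numbered libraries had -0.19 to 0.105 and -0.173 to 0.0419. The correlations were weak, but the highest in each line was between same-numbered libraries, so whether the numbers pair the libraries is not settled. No called gene changed direction. Among uncalled ones, leaving out 1 library gave log2 changes at 150 nM in TMD8 of -1.69 to 3.47 for CDH16 and -0.0425 to 1.08 for RFPL4A, the lowest in both without 150 nM replicate 3 (both near the floor, so their size depends on the prior count), and of -0.0249 to 0.246 for GAS6 at 500 nM in OCI-Ly1. The median change of all genes in TMD8 at 150 nM moved from 0.0113 to -0.135 on the log2(TPM + 0.1) scale, and in OCI-Ly1 at 500 nM from -0.0033 to 0.13. The causes were not tested.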
